A study of Cricetulus griseus with 6 samples.

Results

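Pre-mRNA splicing genes of the core snRNP, SR protein, hnRNP and RBM families were followed in putrescine-starved CHO-K1 cells. Members were picked by gene name, with earlier results of these data known. They were probe sets with 1 gene symbol beginning Srsf, Hnrnp, Snrp, Sf3a, Sf3b, Prpf, U2af, Lsm or Rbm. In the Srsf, Prpf, Lsm and Rbm families a number had to follow. This gave 89 genes out of 14899 genes with a single-symbol probe set on the array, represented by 95 probe sets. Where a gene had several probe sets, the one with the highest mean over the 6 arrays stood for it. The 89 genes comprised 9 SR proteins, 15 hnRNPs, 5 Sm ring proteins, 3 further Snrp genes, 9 SF3A and SF3B subunits, 11 PRPF proteins, 10 LSm proteins and 27 numbered RBM proteins. No single-symbol probe set carried a U2af name. A further 8 probe sets shared a name of these families with another gene, among them those of U2af1, U2af2, Hnrnpk and Hnrnpl, and were left out.

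CHO-K1 is an established line from Chinese hamster ovary, known to lack arginase activity and so to depend on a supply of polyamines or ornithine. Putrescine-starved cells grew in 3 flasks of serum-free medium without putrescine, and fed control cells in 3 flasks of the same medium with 1 mg/l putrescine. All flasks were seeded at 200000 cells/ml in suspension, and RNA was taken on day 3 and hybridised to 1 Affymetrix whole-transcript array per flask. The labels name no transgene or genetic change, and all 6 cultures were of this 1 line.

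Splicing removes introns from pre-mRNA in the nucleus. The U1, U2, U4, U5 and U6 snRNPs, each a small nuclear RNA bound by proteins, recognise the splice sites and assemble into the spliceosome. A ring of Sm proteins encircles the U1, U2, U4 and U5 RNAs, and a ring of LSm proteins holds the end of U6 RNA. SR proteins and hnRNPs bind the pre-mRNA outside the core machinery and steer the choice of splice sites, SR proteins often promoting the use of an exon and many hnRNPs opposing it. Several of these genes are also known to control their own mRNA through exons that lead to its decay.

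The deposited values are log2 levels per probe set. Each difference is the mean without putrescine minus the mean with it, on that log2 scale. A gene was called where its limma p-value fell below 0.05 after Benjamini-Hochberg adjustment across the 29700 probe sets of the array. Arrays had similar distributions, with medians of 4.92 to 4.95 without putrescine and 4.93 to 4.98 with it. Arrays of the same group correlated at Pearson r of 0.9956 to 0.9962 across probe sets, and arrays of different groups at 0.9856 to 0.9878. Of 26 markers of other tissues, 15 were measured, and their median level was 3.90. Their summed level was 59.1 to 59.4 per array without putrescine and 60.0 to 61.2 with it. Only Actc1 among them was called, lower by 0.66, and any part of this in the results below was not tested. Of 8 markers of cultured fibroblast-like cells 5 were measured, with a summed level of 54.0 to 54.2 per array without putrescine and 52.1 to 52.2 with it. Lgals1 (galectin-1) rose by 0.89 (limma adjusted p = 0.000146), and Tpm1 (a tropomyosin) and Fn1 (fibronectin) rose by 0.46 each. Vim (vimentin; difference -0.03) and Actb (0.17) did not pass. The part of these markers in the results below was not tested either. The gonadotropin receptor genes Lhcgr and Fshr, which mark ovarian follicle cells, averaged 3.60 and 4.18 without putrescine and 3.52 and 4.24 with it. These values are close to the marker level of 3.90, but both genes are among the 15 markers that set it. Equal amounts of RNA were labelled (300 ng), so fewer cells with a transcript and less of it per cell cannot be told apart, and a change in total RNA per cell would not be seen.

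Without putrescine, the splicing genes moved mostly upward. Of the 89 genes 42 rose and 2 fell, while 45 did not pass; of all probe sets 24.4% were called, 13.2% higher and 11.2% lower. As shares, 47.2% of the members rose and 2.25% fell, while 30.0% of all 14899 genes were called, 15.8% higher and 14.2% lower. These genes are well expressed, and brighter probe sets are called more often. Among the 5021 genes with a mean level of 8 or more, a limit chosen after the values were seen, 48.6% were called, 27.0% higher and 21.6% lower. Of the 72 members at that level 54.2% were called, 38 higher and 1 lower. The share of members called at that level was thus near that of other genes of similar brightness, whereas nearly all their calls were upward.

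The sizes of the differences were moderate. The median log2 difference was 0.27 over the 89 genes, 0.01 over all genes and 0.04 over genes at a level of 8 or more. Differences ran from -0.45 to 1.36, and 73 of the 89 were above 0. Among called members 24 changed at least 1.5-fold and 6 at least 2-fold, all of them among the 72 at a level of 8 or more. Of the 5021 genes at that level, 967 were called with at least a 1.5-fold change and 223 with at least a 2-fold change. In 58 members all starved cultures lay above all fed ones and in 4 below, where this held for 19.8% and 17.6% of all probe sets. In both directions together that is 69.7% of the members, against 37.5% of all probe sets and 44.5% of all genes. At a level of 8 or more it held for 73.6% of the 72 members and 69.4% of the 5021 genes. Each starved culture showed the shift: relative to each gene's mean with putrescine, the median over the members was 0.27, 0.24 and 0.29 in the 3 cultures without putrescine. In these cultures 77, 70 and 77 of the 89 members lay above that mean.

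**Figure D1:**
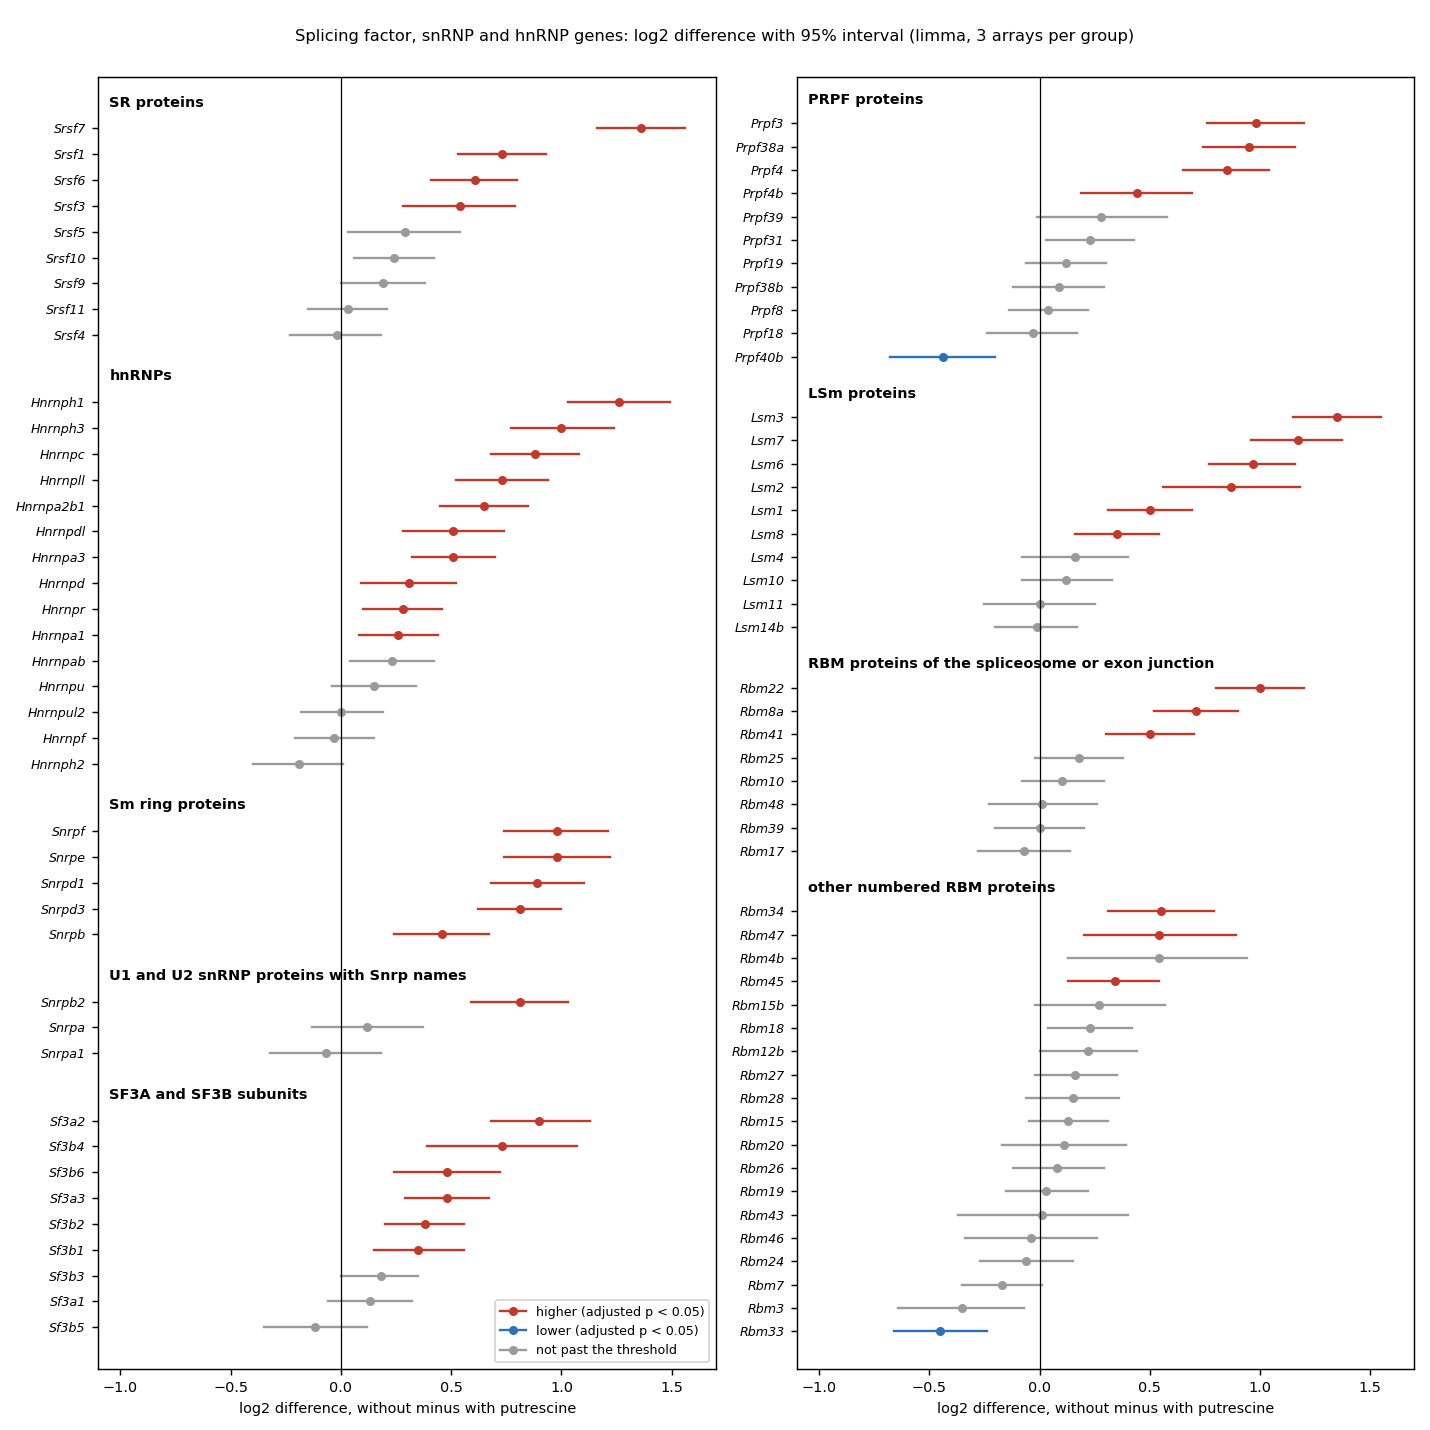
Log2 difference (x axis, without minus with putrescine) of each of the 89 splicing genes, grouped by role; points are limma estimates from 3 arrays per group and lines are 95% intervals. Red genes were called higher (42), blue lower (2, Prpf40b and Rbm33) and grey genes did not pass the test (45). Every measured Sm ring gene is red.

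**Figure D2:**
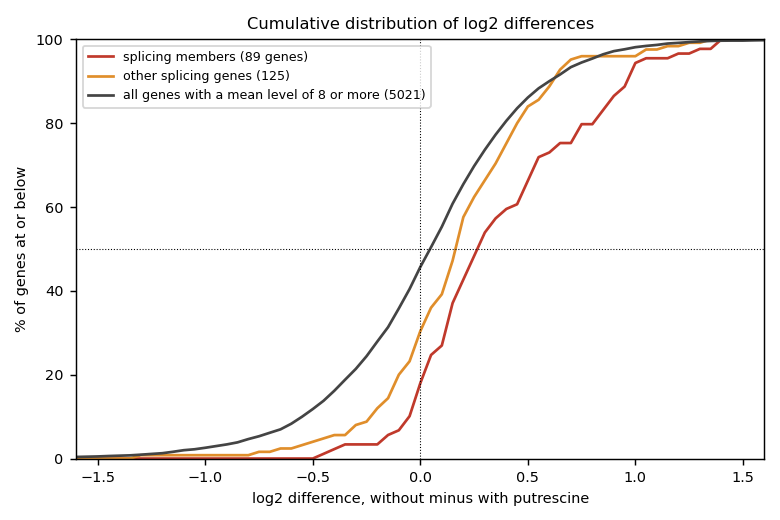
Cumulative distribution of log2 differences (x axis, without minus with putrescine; y axis, percent of genes at or below) for the 89 splicing members, 125 other splicing genes and all 5021 genes with a mean level of 8 or more. The curve of the members lies to the right, with medians of 0.27 for the members, 0.17 for other splicing genes and 0.04 for the genes at a level of 8 or more.

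The measured Sm ring genes rose together, while the ring genes Snrpd2 and Snrpg were not among the members. All 5 measured Sm genes were higher without putrescine, with a median log2 difference of 0.89, and none of them overlapped between the groups. Such separation, in either direction, was also seen in 69.4% of genes at a level of 8 or more. The Sm proteins form the ring around the U1, U2, U4 and U5 RNAs. Snrpe, which encodes SmE, had values of 10.17, 10.45 and 10.41 without putrescine, against 9.5, 9.30 and 9.29 with it. The lowest starved culture was thus above the highest fed one, and the gene was 1.97-fold higher (log2 difference 0.98, SE 0.11; limma adjusted p = 0.000327). Snrpf, which encodes SmF, had 9.76, 9.70 and 9.79 without putrescine, against 8.96, 8.75 and 8.61 with it. It was also 1.97-fold higher (SE 0.10 on the log2 scale; limma adjusted p = 0.00029).

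SmD1 and SmD3 are further subunits of the same ring. Snrpd1 had 10.42, 10.40 and 10.60 without putrescine, against 9.55, 9.68 and 9.52 with it. Its difference was 0.89 (SE 0.09; limma adjusted p = 0.000266). Snrpd3 had 10.63, 10.52 and 10.50 without putrescine, against 9.81, 9.72 and 9.70 with it, a difference of 0.81 (SE 0.08). Snrpb, which encodes the SmB proteins, moved least of the 5, at 10.58, 10.66 and 10.40 without putrescine against 10.15, 10.06 and 10.06 with it. Its difference of 0.46 (95% interval 0.24 to 0.67) passed the test at limma adjusted p = 0.0076.

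Most genes of the U6-associated LSm ring rose as well. LSm2 to LSm8 make the ring on U6 RNA, and 6 of these 7 genes were measured: 5 rose, 0 fell and Lsm4 did not pass. Lsm3 had 8.90, 9.0 and 8.93 without putrescine, against 7.70, 7.57 and 7.50 with it. This was a 2.56-fold rise (log2 difference 1.35, SE 0.09; limma adjusted p = 3.91e-05). Lsm7 had 10.00, 10.06 and 9.90 without putrescine, against 8.92, 8.74 and 8.80 with it, a 2.24-fold rise (limma adjusted p = 7.36e-05). In both genes the starved and fed cultures were far apart and each group was tight.

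Lsm6 rose by 0.97 (SE 0.08), with 8.99, 9.10 and 9.18 without putrescine against 8.12, 8.15 and 8.10 with it. Lsm2 rose by 0.87 (SE 0.14), and its cultures were more spread, at 9.68, 9.41 and 9.22 without putrescine against 8.40, 8.55 and 8.74 with it. Lsm8, the subunit that sets the U6 ring apart from the cytoplasmic one, was 1.27-fold higher (limma adjusted p = 0.0138), and its adjusted p was 0.0509 without with-putrescine replicate 3. Lsm4 had 7.57, 7.40 and 7.44 without putrescine, against 7.43, 7.12 and 7.37 with it. Its groups overlapped and its difference was 0.16 (95% interval -0.08 to 0.40).

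The other LSm genes belong to rings and complexes outside the spliceosome. Lsm1, which replaces LSm8 in the cytoplasmic ring that promotes mRNA decapping, rose 1.41-fold, at 8.96, 8.95 and 8.89 without putrescine against 8.53, 8.41 and 8.36 with it (limma adjusted p = 0.00278). Lsm10 and Lsm11, which belong to the U7 snRNP that processes histone mRNA ends, did not pass the test. Lsm10 differed by 0.12 (95% interval -0.08 to 0.33) and Lsm11 by -0.00 (-0.25 to 0.25). Lsm14b, a protein of cytoplasmic RNA granules, differed by -0.01 (-0.20 to 0.17). In all, 6 of the 10 LSm genes rose, 0 fell and 4 did not pass (median 0.42).

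**Figure D3:**
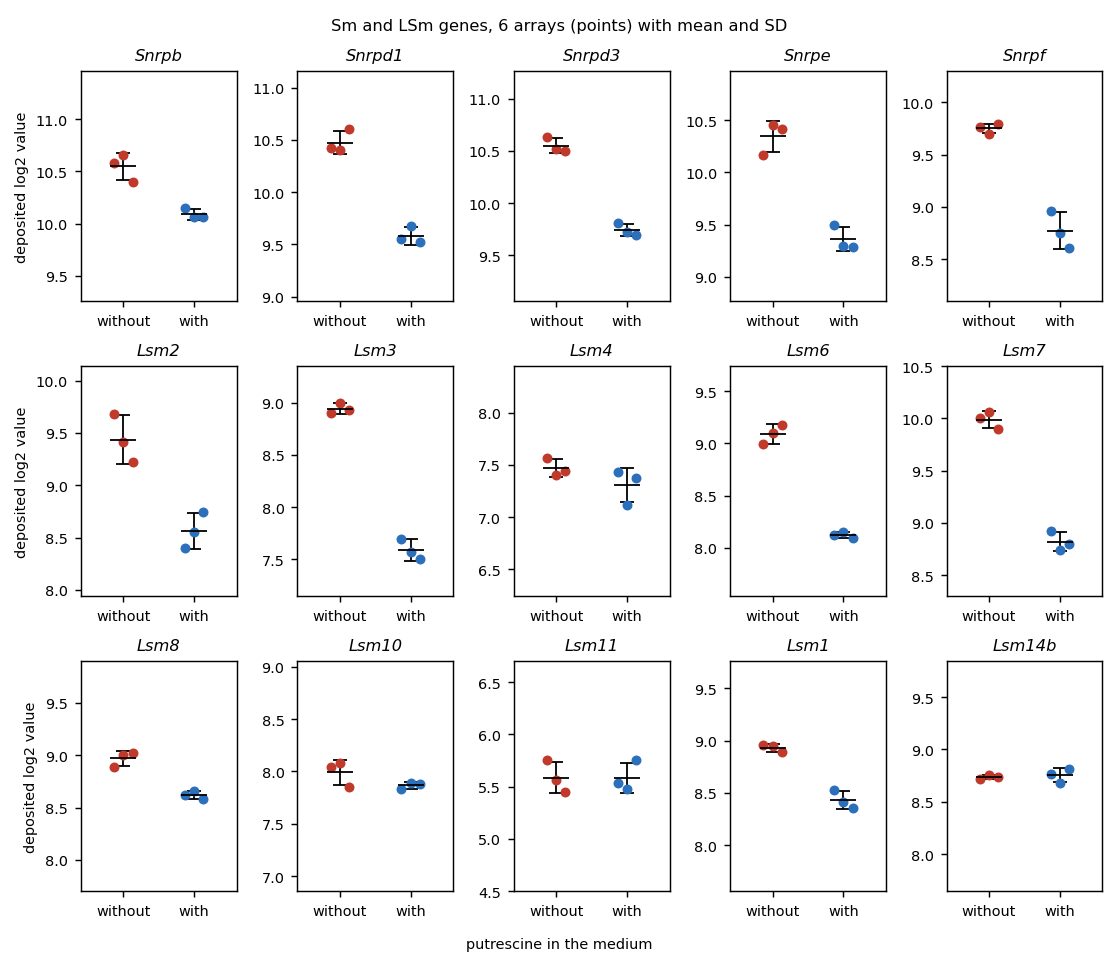
Deposited log2 values (y axis; each panel spans the same range of log2 units around its own centre) of the 5 Sm and 10 LSm genes in the 3 cultures without and the 3 with putrescine; points are arrays, and bars are the mean and SD. The groups stand apart in the Sm genes and in Lsm2, Lsm3, Lsm6, Lsm7, Lsm8 and Lsm1, and overlap in Lsm4, Lsm10, Lsm11 and Lsm14b.

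Proteins specific to 1 snRNP did not all follow the rings. Among 3 such genes with Snrp names, Snrpb2 rose and the others did not pass. Snrpb2, which encodes the U2 protein B'', had 10.23, 10.10 and 10.36 without putrescine, against 9.52, 9.38 and 9.36 with it, a 1.75-fold rise (limma adjusted p = 0.000506). Snrpa1, its partner in the U2 snRNP, differed by -0.07 (95% interval -0.32 to 0.18). Snrpa, which encodes the U1 protein A, differed by 0.12 (-0.13 to 0.37). Both of these overlapped between the groups.

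SF3A and SF3B are the parts of the U2 snRNP that hold the branch site of the intron. Of the 9 subunit genes with Sf3a or Sf3b names 6 rose, 0 fell and 3 did not pass, with a median of 0.38. Sf3a2 had 10.77, 10.68 and 10.53 without putrescine, against 9.83, 9.64 and 9.80 with it. It was 1.87-fold higher (log2 difference 0.90, SE 0.10; limma adjusted p = 0.000315). Sf3b4 had 9.45, 9.33 and 8.89 without putrescine, against 8.62, 8.34 and 8.52 with it. The groups did not overlap, but starved replicate 3 lay nearer the fed cultures, and the difference of 0.73 had a wide interval (0.39 to 1.07).

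Sf3a3 rose by 0.48, and so did Sf3b6, the subunit beside the branch-site adenosine. Sf3b2 rose by 0.38 (SE 0.08). Sf3b1, the large scaffold that contacts the branch site, had 10.69, 10.65 and 10.86 without putrescine, against 10.33, 10.42 and 10.39 with it. Its 1.28-fold rise passed at limma adjusted p = 0.0196, but not without no-putrescine replicate 3 (0.0586) nor without with-putrescine replicates 1 (0.0624) and 3 (0.0525). The members that did not pass were Sf3a1 (0.13), Sf3b3 (0.18) and Sf3b5 (-0.12).

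The PRPF genes, named after yeast pre-mRNA processing mutants, act in different particles and steps. Of 11 genes 4 rose, 1 fell and 6 did not pass (median 0.23). The 45.5% called compares with 30.0% of all genes and 48.6% of genes at a level of 8 or more. The share that rose was 36.4%, against 15.8% and 27.0%. Prpf3 and Prpf4 encode partners in the U4/U6 snRNP. Prpf3 had 10.10, 9.93 and 10.20 without putrescine, against 9.03, 9.17 and 9.09 with it, a 1.97-fold rise (limma adjusted p = 0.000204). Prpf4 had 8.58, 8.66 and 8.69 without putrescine, against 7.70, 7.86 and 7.83 with it, a 1.80-fold rise (limma adjusted p = 0.000226). Prpf31, which joins that particle to U5, differed by 0.23 (95% interval 0.03 to 0.43) and did not pass (limma adjusted p = 0.0997).

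Prpf8, the core protein of the U5 snRNP at the centre of the spliceosome, did not pass the test. It had 11.74, 11.76 and 11.73 without putrescine, against 11.68, 11.77 and 11.66 with it, a difference of 0.04 (95% interval -0.14 to 0.22). Its other probe sets gave 0.09 and 0.06, also short of the threshold. Prpf19, the ubiquitin ligase of the complex that activates the spliceosome, differed by 0.12 (-0.06 to 0.30), and Prpf18, which acts at the second catalytic step, by -0.03.

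Prpf38a and Prpf38b, related proteins of the precatalytic spliceosome, had unequal values. Prpf38a had 10.97, 10.73 and 10.94 without putrescine, against 9.90, 9.95 and 9.95 with it, a 1.93-fold rise (limma adjusted p = 0.000191). Prpf38b had 10.40, 10.29 and 10.51 without putrescine, against 10.26, 10.37 and 10.31 with it (difference 0.09, 95% interval -0.12 to 0.29). The log2 ratio of Prpf38a to Prpf38b within an array was 0.48 ± 0.08 without putrescine and -0.38 ± 0.03 with it (SD, n = 3 each). The difference of 0.86 had an exact two-sided permutation p of 0.1, the smallest that 3 against 3 arrays can give. Prpf4b, a splicing kinase, was 1.36-fold higher (limma adjusted p = 0.0188). Its call was lost in 4 of the 6 fits that left out 1 array, those without replicate 1 or 3 of either group (adjusted p 0.0502 to 0.0666).

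Prpf40b, related to a U1-associated protein of yeast, was the PRPF gene that fell. It had 6.35, 6.33 and 6.07 without putrescine, against 6.68, 6.59 and 6.80 with it, a difference of -0.44 (SE 0.11; limma adjusted p = 0.0157). A further probe set gave -0.43 (adjusted p = 0.0334). With putrescine-fed replicate 3 left out, the adjusted p of its main probe set was 0.0577, short of the threshold. Prpf39, also related to a yeast U1 protein, differed by 0.28 and did not pass.

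Among the SR proteins 4 of 9 rose, 0 fell and 5 did not pass, with a median of 0.29. The 44.4% called, all higher, compares with 30.0% of all genes (15.8% higher). Of genes at a level of 8 or more 48.6% were called, 27.0% higher. Srsf7 showed the largest difference of all 89 members. It had 10.35, 10.28 and 10.48 without putrescine, against 9.03, 9.01 and 8.99 with it, a 2.57-fold rise (log2 difference 1.36, SE 0.09; limma adjusted p = 3.54e-05). Srsf1, the founding SR protein, had 10.87, 10.92 and 10.97 without putrescine, against 10.13, 10.13 and 10.31 with it, a 1.66-fold rise (limma adjusted p = 0.000515). In both genes the groups stood apart by more than the range within either.

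Srsf6 rose 1.52-fold, at 10.18, 10.15 and 10.10 without putrescine against 9.44, 9.60 and 9.57 with it (limma adjusted p = 0.00105). Srsf3, the closest relative of Srsf7, had 7.82, 7.91 and 8.0 without putrescine, against 7.26, 7.59 and 7.27 with it, a 1.45-fold rise (limma adjusted p = 0.00788). Srsf4 and Srsf11 had differences of -0.02 (95% interval -0.23 to 0.18) and 0.03 (-0.15 to 0.21), and their groups overlapped. Srsf5 differed by 0.29 (0.03 to 0.54), Srsf10 by 0.24 (0.06 to 0.42) and Srsf9 by 0.19. These 3 did not overlap between the groups but missed the adjusted threshold, at limma adjusted p = 0.101, 0.0603 and 0.147.

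The hnRNP genes also moved upward: 10 of 15 rose, 0 fell and 5 did not pass, with a median of 0.31. Hnrnph1, which binds G-rich elements, had 11.29, 11.15 and 11.24 without putrescine, against 10.06, 10.06 and 9.78 with it. This was a 2.39-fold rise (log2 difference 1.26, SE 0.10; limma adjusted p = 9.4e-05). Hnrnph3, of the same subfamily, had 9.46, 9.31 and 9.49 without putrescine, against 8.51, 8.25 and 8.49 with it. It was 2.0-fold higher (limma adjusted p = 0.00023).

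The remaining genes of the H and F subfamily did not pass the test. Hnrnph2, whose product closely resembles that of Hnrnph1, had 9.11, 9.06 and 9.24 without putrescine, against 9.24, 9.38 and 9.37 with it. Its difference was -0.19 (95% interval -0.40 to 0.01; limma adjusted p = 0.169). The log2 ratio of Hnrnph1 to Hnrnph2 was 2.09 ± 0.09 without putrescine and 0.64 ± 0.21 with it (SD, n = 3 each). That difference of 1.45 had an exact two-sided permutation p of 0.1, again the smallest possible, and both pairs of genes were chosen after their values were seen (Benjamini-Hochberg adjusted p = 0.1 over the 2 pairs). Signal shared between such similar genes by cross-hybridisation cannot be measured from probe set values. Hnrnpf had 11.69, 11.62 and 11.76 without putrescine, against 11.74, 11.72 and 11.70 with it, a difference of -0.03 (-0.21 to 0.15).

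**Figure D4:**
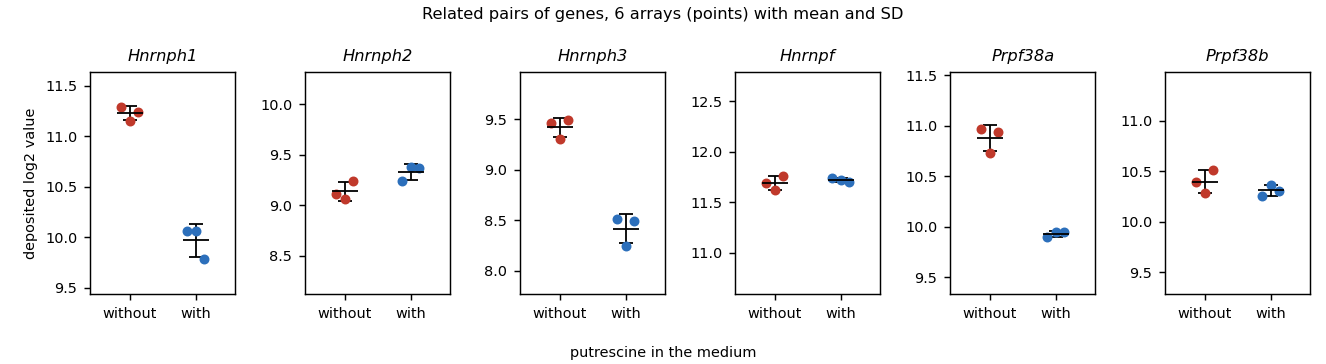
Deposited log2 values (y axis; each panel spans the same range of log2 units around its own centre) of 4 genes of the hnRNP H and F subfamily and of Prpf38a and Prpf38b in the 3 cultures without and the 3 with putrescine; points are arrays, and bars are the mean and SD. Hnrnph1, Hnrnph3 and Prpf38a stand higher without putrescine by 1.26, 1.00 and 0.95, while Hnrnph2, Hnrnpf and Prpf38b did not pass the test.

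Hnrnpc, which binds uridine tracts and packages nascent transcripts, had 11.35, 11.48 and 11.58 without putrescine, against 10.59, 10.55 and 10.63 with it, a 1.84-fold rise (limma adjusted p = 0.000231). Hnrnpll, known for regulating alternative exons in lymphocytes, had 10.13, 9.92 and 10.06 without putrescine, against 9.38, 9.31 and 9.23 with it (1.66-fold). Hnrnpa2b1, an abundant A/B-type hnRNP that also acts in RNA transport, had 11.88, 11.80 and 11.90 without putrescine, against 11.32, 11.18 and 11.13 with it (1.57-fold, limma adjusted p = 0.000894). Hnrnpa3, of the same type, and Hnrnpdl each rose by 0.51. Hnrnpd, a protein of AU-rich element decay whose gene neighbours Hnrnpdl in the RefSeq annotation, rose by 0.31.

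Hnrnpa1, the classic antagonist of SR proteins, had 11.45, 11.42 and 11.45 without putrescine, against 11.23, 11.19 and 11.12 with it. Its difference was 0.26 (SE 0.08; limma adjusted p = 0.0426). The calls of Hnrnpa1, Hnrnpd (adjusted p = 0.0432) and Hnrnpr (0.28; adjusted p = 0.0306) lay near the threshold. Each was lost after quantile normalization, with a replicate block and without any 1 array, except that Hnrnpd kept its call without no-putrescine replicate 2. Over the alternatives their adjusted p-values reached 0.136, 0.123 and 0.0903. Hnrnpab (0.23), Hnrnpu (0.15) and Hnrnpul2 (0.00) did not pass.

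The numbered RBM genes share an RNA recognition motif and little else, and were divided by known role. Of 8 genes of the spliceosome or the exon junction complex 3 rose, 0 fell and 5 did not pass (median 0.14). The 37.5% called, all higher, compares with 30.0% of all genes and 48.6% of genes at a level of 8 or more. Of those 2 sets 15.8% and 27.0% were higher. Rbm22, which binds U6 RNA and the pre-mRNA in the active spliceosome, had 9.35, 9.18 and 9.36 without putrescine, against 8.29, 8.28 and 8.32 with it. This was a 2.0-fold rise (log2 difference 1.00, SE 0.09; limma adjusted p = 0.000115). Rbm8a, the exon junction protein Y14, had 10.90, 10.87 and 10.85 without putrescine, against 10.11, 10.11 and 10.26 with it, a 1.64-fold rise (limma adjusted p = 0.00044).

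Magoh, the gene of the direct partner of Y14 and not itself one of the 89, rose 2.54-fold (log2 difference 1.35, SE 0.12; limma adjusted p = 0.000121). Its values averaged 10.03 ± 0.16 without putrescine and 8.69 ± 0.17 with it (SD, n = 3 each). Rbm41, related to a protein of the minor spliceosome, rose 1.41-fold. Rbm39, a U2AF-like splicing coactivator, had 11.28, 11.19 and 11.35 without putrescine, against 11.23, 11.36 and 11.23 with it. Its groups overlapped, with a difference of -0.00 (95% interval -0.20 to 0.20). Rbm25 (0.18), Rbm10 (0.10), Rbm48 (0.01) and Rbm17 (-0.07) did not pass.

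Among the other 19 RBM genes 3 rose, 1 fell and 15 did not pass (median 0.13). The share that rose, 15.8%, equalled that of all 14899 genes, and the 21.1% called in either direction was below their 30.0%. Both shares were below the 27.0% and 48.6% of genes at a level of 8 or more. The median level of these 19 genes was 8.17. Together with the RBM genes above, they made up 27 of the 89 members; the remaining 62 genes had 36 rises and 1 fall, or 58.1% and 1.61%. Rbm34, a nucleolar protein, had 7.67, 7.48 and 7.66 without putrescine, against 6.89, 7.19 and 7.07 with it, a 1.47-fold rise (limma adjusted p = 0.00504). Rbm45 rose by 0.34 and Rbm47, a cofactor of C-to-U mRNA editing, by 0.54. The call of Rbm45 was lost with a replicate block and in 4 of the 6 fits without 1 array. Those 4 were without no-putrescine replicates 1 and 3 and with-putrescine replicates 2 and 3 (adjusted p up to 0.0882). The call of Rbm47 was lost without any 1 of the with-putrescine replicates (adjusted p up to 0.0741). Rbm47 averaged 4.26 without and 3.72 with putrescine, close to the other-tissue marker level.

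Rbm33, an RNA-binding protein linked to mRNA demethylation and export, was the other member that fell. It had 8.0, 7.86 and 7.86 without putrescine, against 8.37, 8.45 and 8.25 with it, a difference of -0.45 (SE 0.09; limma adjusted p = 0.0069). A further probe set gave -0.38 (adjusted p = 0.0101). Rbm3, the cold-inducible RNA-binding protein, had 9.63, 9.92 and 9.63 without putrescine, against 9.93, 10.02 and 10.29 with it. Its groups did not overlap, but the difference of -0.35 (95% interval -0.64 to -0.07) did not pass (limma adjusted p = 0.0748). Over the alternatives its adjusted p ran from 0.0209 to 0.217. Rbm7, part of a nuclear RNA decay complex, differed by -0.17 (-0.35 to 0.01). Rbm20, Rbm24 and Rbm46, known from heart, muscle and germ cells, averaged 4.19, 4.01 and 3.28 without putrescine and 4.08, 4.07 and 3.31 with it, near the other-tissue marker level.

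**Figure D5:**
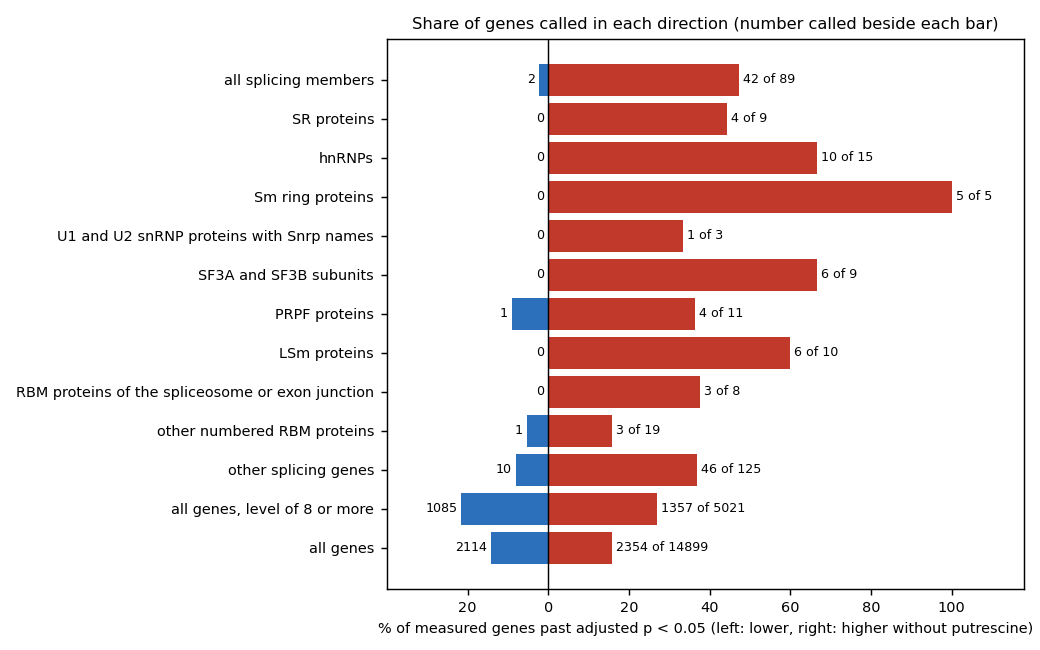
Percent of measured genes past the limma adjusted threshold in each role (x axis; bars to the right were higher and bars to the left lower without putrescine), with the number called beside each bar; the lowest bars give the other splicing genes and all genes. The measured Sm ring genes reach 5 of 5 higher, whereas all genes at a level of 8 or more have 27.0% higher and 21.6% lower.

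Splicing genes outside these name families also had more rises than falls. Of 158 entries in 7 further lists 125 genes were measured, of which 46 rose, 10 fell and 69 did not pass (median 0.17). These 125 genes were not filtered by level, and their median level was 9.01. In shares, 36.8% rose and 8.0% fell, against 15.8% and 14.2% of all genes. Among genes at a level of 8 or more the shares were 27.0% and 21.6%. The share called in either direction, 44.8%, was above the 30.0% of all genes but not above the 48.6% at that level. By list, the share that rose ran from 28.6% to 50.0%. In the list of U1, U5 and minor snRNP proteins 6 of 12 rose and 2 fell. Zrsr2, which recognises minor-intron splice sites, rose 1.62-fold and Snrnp48, of the U11/U12 snRNP, 1.58-fold. The genes that fell both belong to U1: Snrnp70, the U1 70K protein, averaged 10.38 ± 0.04 without putrescine and 10.73 ± 0.03 with it (SD, n = 3 each; difference -0.35, limma adjusted p = 0.0114). Luc7l, a U1-associated protein, was 1.47-fold lower (limma adjusted p = 0.00138).

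Among tri-snRNP and U2 partners 6 of 14 rose and 0 fell. Ppih, the cyclophilin that binds the Prpf3 and Prpf4 proteins, was 2.04-fold higher, at 8.84 ± 0.13 without putrescine and 7.81 ± 0.03 with it (SD, n = 3 each; limma adjusted p = 0.000132). Cherp was 1.48-fold higher (adjusted p = 0.032), with adjusted p up to 0.102 over the alternatives. In the list of Prp19 complex and step factors 6 of 18 rose and 2 fell. Wbp11 rose 1.56-fold and Bcas2, a Prp19 complex subunit, 1.40-fold, while Cdc40, a second-step factor, was 1.59-fold lower (limma adjusted p = 0.000747). Cwc27 was 1.23-fold lower (adjusted p = 0.0284), with adjusted p up to 0.0981 over the alternatives.

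SR kinases and SR-related proteins were mixed, with 6 of 18 higher and 3 lower. Pnn, a nuclear speckle protein, rose 2.01-fold and Tra2b, an SR-like splicing activator, 1.57-fold. Srpk2, a kinase that phosphorylates SR proteins, was 1.37-fold lower and Scaf11 1.69-fold lower. Among other regulators and RNA-binding proteins 14 of 36 rose and 2 fell. The paraspeckle gene Pspc1 rose 2.31-fold and Rbmx, also called hnRNP G, 2.20-fold. Msi1, an RNA-binding regulator of translation, fell to 5.20 ± 0.04 without putrescine, against 6.53 ± 0.16 with it (SD, n = 3 each), a 2.51-fold difference (limma adjusted p = 6.53e-05). Qki was 1.25-fold lower (adjusted p = 0.0274), with adjusted p up to 0.101 over the alternatives.

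The snRNP assembly list, which covers the SMN complex and the methylosome that load Sm rings onto RNA, had 4 of 14 higher and 0 lower (median 0.16). Gemin2, the SMN partner that holds the Sm proteins, rose 1.52-fold and Tgs1, which modifies the snRNA cap, 1.57-fold. In the exon junction and nonsense-mediated decay list 4 of 13 rose and 1 fell, with a median of 0.01. The shares that rose in these lists, 28.6% and 30.8%, were near the 27.0% of genes at a level of 8 or more. They were above the 15.8% of all genes, and the median levels of the lists were 8.61 and 8.70. Besides Magoh, Smg5 rose 1.56-fold, while Upf3a was 1.44-fold lower.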

How the data were processed

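Total RNA from 6 CHO-K1 cultures was measured on 6 Affymetrix arrays. The authors deposited 1 log2 value per probe set and array, made with Transcriptome Analysis Console per the submitters' processing notes. For summarisation, log base and scan batch the sources used here give nothing; base 2 was taken from the range of 1.55 to 13.66. The table held 29700 probe sets (16481 with 1 symbol, 793 with several, 12426 with none) and 1 missing value, in none of the members. Of the 89 members 88 matched the RefSeq table of CriGri-PICRH-1.0 by Entrez identifier and symbol, all but Prpf8. No sequences or coordinates were used here.

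limma 3.58.1 (R 4.3.3) was fitted to all probe sets with group as the only term (lmFit, eBayes; prior degrees of freedom 4.58) and tested on simulated data. Precision is limited by having 3 arrays in each group. The labels call the cultures biological triplicates.

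Members, lists and roles were chosen with earlier results of these data known. Named genes were, per role, the gene with the highest mean, up to 4 called in each direction by size, a core of genes, and up to 2 per direction in each further list; other members were named after their values were seen. Alternatives were quantile normalization, median centring, a filter at the other-tissue marker level (3.90), an intensity trend with robust prior, a replicate block, averaging probe sets, a threshold of 0.01, and leaving out each array.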

Additional observations from a re-analysis of the deposited data

How the results depend on the processing

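Over the 12 refits, between 34 and 49 members were called higher (34 to 40 with 1 array left out) and the median difference of the members stayed between 0.23 and 0.29. Of the 44 called members 35 passed in every refit that tested them, 34 of them higher; Hnrnpa1, Hnrnpd, Hnrnpr, Sf3b1, Prpf4b, Prpf40b, Lsm8, Rbm45 and Rbm47 did not. No named gene that passed the test changed sign. For every count that follows the cause was not tested, beyond the smaller number of arrays or stricter limit that defines the setting. At a threshold of 0.01, all probe sets gave 2375 higher and 2081 lower, other splicing genes 30 higher, tri-snRNP partners 3, SR kinases and SR-related proteins 3, other regulators 8 and other RBM genes 1 higher; members called lower were 1, PRPF genes 0, U1 and minor snRNP proteins 1, Prp19 complex and step factors 1 and other regulators 1. With an intensity trend and robust prior, other RBM genes had 5 higher and 3 lower, members 4 lower and other regulators 5 lower. Above the marker level, other RBM genes had 5 higher and 2 lower and other regulators 4 lower. With 1 array left out, the ranges were 1 to 3 higher and 1 to 2 lower for other RBM genes, 3 to 4 higher for tri-snRNP partners (3 without no-putrescine replicate 1 or 2 or with-putrescine replicate 2), 1 to 3 lower for members, 0 to 1 lower for PRPF genes, 1 to 2 lower for the Prp19 complex and step factors and 1 to 2 lower for other regulators. The same-numbered cultures did not deviate together (correlations of 0.04, -0.15 and -0.07 for numbers 1 to 3). No culture correlated best with its own number in the other group. These values gave no sign of pairing by number, but they cannot tell whether same-numbered cultures were handled together. With the replicate block 38 members were called higher and 2 lower (the calls of Hnrnpa1, Hnrnpd, Hnrnpr and Rbm45 did not pass, leaving 7 higher among the hnRNPs), and the lower calls were 1 in the Prp19 list and 1 in the other regulators. Without a detection call per probe set, genes near the marker level of 3.90 cannot be told from background.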
